A study of Homo sapiens with 22 samples.

Results

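Peak lists of open chromatin and of CTCF binding were read around 6 human genes that govern how long a fibroblast goes on dividing: TERT, CDKN2A, CDKN2B, CDKN1A, CDKN1B and RB1. Every region that overlapped the annotated body of one of these genes, or the 50 kb on either side of it, was taken. This gave 199 regions of the 532810 in the 4 lists used: 62 of 155746 in HFFc6 ATAC, 52 of 189982 in H1 ATAC, 45 of 82297 in HFFc6 CTCF and 40 of 104785 in the hESC-named CTCF list. HFFc6 is a subclone (c6) of HFF-hTERT, human foreskin fibroblasts immortalised by an introduced telomerase gene, so the fibroblast lists come from 1 clone that carries extra TERT sequence. H1 is a line of human embryonic stem cells. No treatment or time point separates the groups, so cell line, clone, culture and library preparation cannot be told apart.

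ATAC-seq maps accessible DNA by where the transposase Tn5 can cut it, and was run on 8 HFFc6 libraries and 2 H1 libraries. For CTCF, 2 HFFc6 libraries were made by Cut&Tag, which brings Tn5 to the sites of a protein with an antibody against it. The last list carries hESC and CTCF in its name, but none of the labels describes it, so its assay and library number are unknown here and it is called hESC-named. Each list is a single call for its group without values per library, so every comparison below is between lists and has no replicate error.

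Telomerase adds repeats to chromosome ends, and TERT is its catalytic reverse transcriptase, silent in most differentiated cells and active in embryonic stem cells. The arrest genes act as brakes on the cell cycle. CDKN2A encodes p16INK4a, which blocks the kinases CDK4 and CDK6, and from a separate upstream start the protein ARF, which restrains the ubiquitin ligase MDM2. CDKN2B encodes p15INK4b, a second inhibitor of the same kinases. CDKN1A encodes p21, known for its induction by DNA damage, and CDKN1B encodes p27, and both restrain cyclin-CDK complexes. RB1 encodes the retinoblastoma protein, which these inhibitors keep active and which holds back E2F target genes. CTCF is a zinc-finger protein that binds DNA at insulators and loop anchors and at many promoters.

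The promoters of TERT, CDKN2A, CDKN2B, CDKN1A and CDKN1B are shown because their coverage by the 4 lists is the base of the first comparison. Each sequence runs 5′ to 3′ on the strand of its gene, from 250 bases before to 50 after an annotated start, as RefSeq gives it for GRCh38 patch 14. Capitals mark a GC box (GGGCGG or its reverse complement) or an E box (CACGTG).
TERT, minus strand, chr5:1295019-1295318: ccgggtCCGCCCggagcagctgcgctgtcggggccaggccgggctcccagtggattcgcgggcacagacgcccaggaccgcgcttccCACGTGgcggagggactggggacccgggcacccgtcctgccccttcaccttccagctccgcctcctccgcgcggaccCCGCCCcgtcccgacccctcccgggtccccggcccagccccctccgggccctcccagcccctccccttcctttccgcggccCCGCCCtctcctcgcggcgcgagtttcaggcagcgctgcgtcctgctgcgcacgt
CDKN2A, ARF start, minus strand, chr9:21995275-21995574: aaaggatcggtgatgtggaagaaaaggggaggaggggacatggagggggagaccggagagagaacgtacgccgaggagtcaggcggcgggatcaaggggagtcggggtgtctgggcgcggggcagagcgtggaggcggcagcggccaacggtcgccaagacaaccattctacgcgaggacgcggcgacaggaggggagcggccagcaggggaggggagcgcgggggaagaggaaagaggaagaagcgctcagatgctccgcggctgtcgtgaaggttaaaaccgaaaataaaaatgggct
CDKN2A, p16INK4a start, minus strand, chr9:21974808-21975107: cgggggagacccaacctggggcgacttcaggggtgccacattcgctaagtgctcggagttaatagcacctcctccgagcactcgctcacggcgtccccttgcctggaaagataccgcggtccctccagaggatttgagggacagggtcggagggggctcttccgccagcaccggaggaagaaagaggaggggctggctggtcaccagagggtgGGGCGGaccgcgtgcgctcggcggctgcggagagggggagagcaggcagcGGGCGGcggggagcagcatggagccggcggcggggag
CDKN2B, minus strand, chr9:22009256-22009555: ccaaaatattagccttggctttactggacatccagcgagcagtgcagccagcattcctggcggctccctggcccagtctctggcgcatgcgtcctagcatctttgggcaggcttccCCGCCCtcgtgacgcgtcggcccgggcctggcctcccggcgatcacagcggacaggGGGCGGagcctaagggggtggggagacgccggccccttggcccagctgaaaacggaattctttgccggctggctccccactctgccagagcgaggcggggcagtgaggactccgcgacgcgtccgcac
CDKN1A, plus strand, chr6:36678464-36678763: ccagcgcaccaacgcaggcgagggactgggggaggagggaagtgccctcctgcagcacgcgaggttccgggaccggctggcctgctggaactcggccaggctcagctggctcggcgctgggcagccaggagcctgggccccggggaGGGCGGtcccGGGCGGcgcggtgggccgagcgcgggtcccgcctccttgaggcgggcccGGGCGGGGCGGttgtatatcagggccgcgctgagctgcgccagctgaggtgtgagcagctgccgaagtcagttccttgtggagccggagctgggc
CDKN1B, plus strand, chr12:12717118-12717417: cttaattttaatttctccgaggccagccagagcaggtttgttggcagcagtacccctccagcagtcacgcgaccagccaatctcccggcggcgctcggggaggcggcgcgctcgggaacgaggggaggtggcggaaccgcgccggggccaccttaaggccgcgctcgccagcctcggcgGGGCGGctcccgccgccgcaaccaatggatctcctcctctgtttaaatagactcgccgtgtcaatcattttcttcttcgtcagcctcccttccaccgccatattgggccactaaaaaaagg
The GC box occurred 3 times in the TERT promoter, 4 times in CDKN1A (overlapping matches counted), 2 times each in CDKN2B and at the p16INK4a start, once in CDKN1B and not at the ARF start. Over all 35116 promoters of the table, 45.0% held at least 1 GC box on either strand. The E box was found in TERT, with 1 match, and in none of the other 5 sequences, while 7.26% of all promoters held one. CCGGAA, the core of ETS family sites, matched once in CDKN1A and was found in 17.2% of all promoters. TTTNNCGC, an E2F-type motif, matched none of the 6 sequences and 6.89% of all promoters. The letters CCCTC, a short part of the CTCF core, occurred 6 times in TERT, 6 times at the p16INK4a start, 4 times each at the ARF start and in CDKN1A, 2 times in CDKN1B and once in CDKN2B. They are found in 71.2% of all promoters. These matches describe letters only.

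The labelled cell types were checked by their marker genes. In windows built the same way, 7 of 8 fibroblast markers had more HFFc6-only than H1-only ATAC regions (THY1 was the exception), and 8 of 8 embryonic stem cell markers had more H1-only ones. Of the 5 stem cell markers with an annotated start used here, CRIPTO and ZFP42 had an H1 region only within 1 kb of the start, DPPA4 and SOX2 had regions in both ATAC lists and NANOG in neither. All 3 fibroblast markers with such a start (FN1, PDGFRB and PRRX1) had regions there in both lists, so this rule did not set them apart. Of the 2 keratinocyte markers with one, TP63 had an HFFc6 region only and KRT5 an H1 region only. Of keratinocyte, endothelial, blood and neural markers, CDH5 alone among 9 had more HFFc6-only regions in its window. More H1-only ones were found at 3 of 3 keratinocyte, 1 of 2 blood and 2 of 2 neural markers. A lean to H1 was thus not particular to the stem cell markers. Over all protein-coding genes, 48.4% had more HFFc6-only regions and 41.1% more H1-only ones. Regions of the HFFc6 ATAC list were wider than those of the H1 list (median 707 bp against 301 bp), and a −log10 q of 10 or more was reached by 85.2% of HFFc6 regions, against 48.4% of H1 regions. The lists were called from different numbers of libraries, and the part of width and threshold in the results below was examined only through the alternatives given at the end.

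All 6 genes had an ATAC region within 1 kb of an annotated start in both the HFFc6 and the H1 list, a state shared by 73.2% of the 15812 protein-coding genes with a start used here. All 6 also had a CTCF region that close in both CTCF lists, against a background of 64.0%. HFFc6 carries an introduced TERT, whose reads cannot be told apart here from those of the endogenous gene. The HFFc6 calls at TERT in these counts are therefore not assigned to either copy. With a rule that asks for the start base itself to be covered, chosen after seeing the data, 5 of the 6 were open in both lists (64.5% of all genes). TERT became open in H1 only, a state of 6.84% of genes. For CTCF the same rule left 4 genes covered in both lists, with RB1 covered in HFFc6 only and TERT in neither. The shares of all genes in these CTCF states were not computed, so the counts have no background here.

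At TERT, the annotated start was not covered by an ATAC region in HFFc6 and was covered in H1. The HFFc6 list had a region at chr5:1293435-1294972, within the gene, whose fold enrichment (signal relative to the background that the authors' peak caller estimated) was 4.56, at percentile 36.5 of its list. This region ended 96 bp downstream of the start. The H1 region at chr5:1294872-1295660 crossed the start and reached 592 bp upstream of it, with a fold enrichment of 9.13, percentile 73.7 of the H1 list. The 2 regions shared 101 bp, which is why the 1 bp rule counts them as shared. Of the 300 promoter bases printed above, the HFFc6 ATAC list covered 0 and the H1 ATAC list covered 300.

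The CTCF calls near the TERT start, unlike the ATAC regions, lay on opposite sides of it. The limit set by the introduced TERT holds for the HFFc6 calls here too. The HFFc6 CTCF region at chr5:1293346-1294913 (fold enrichment 6.05, percentile 48.8) lay inside the gene and covered 0 of the promoter bases. The hESC-named CTCF region at chr5:1295169-1295462 (fold enrichment 6.48, percentile 47.3) lay upstream of the start and covered 150 of them. No CTCF region in the TERT window was common to the 2 CTCF lists: all 5 HFFc6 regions and all 3 hESC-named regions were found in one list only, while over all regions 50.9% of the HFFc6 and 41.3% of the hESC-named list were shared. An ATAC region that crosses the outer edge of the window, in CLPTM1L, overlapped CTCF of both lists just beyond that edge.

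The HFFc6 lists held only 1 other place inside the TERT body, at its 3′ end. There, chr5:1253262-1253808 was open in HFFc6 only (fold enrichment 6.57) and overlapped the HFFc6 CTCF region of highest fold enrichment in the window, chr5:1253210-1254465 (10.1, percentile 79.5). Between these 2 ends of the gene, 39.6 kb held no HFFc6 ATAC region. The H1 ATAC list held none in that stretch either, and its 1 region in the gene body was the one across the start. The next HFFc6 ATAC region upstream of the gene lay 17.9 kb from its start, and the next H1 ATAC region 20938 bp from it. HFFc6 carries an introduced TERT, and reads from that copy and from the endogenous gene cannot be told apart in these lists.

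The neighbourhood of TERT also differed between the lists. The HFFc6-only region of highest fold enrichment, chr5:1326895-1327970 (8.88), lay in CLPTM1L, a gene on the upstream side of TERT. The H1 region of highest fold enrichment in the window, chr5:1316006-1316689 (11.6), lay between TERT and CLPTM1L, was found in H1 only and overlapped the strongest hESC-named CTCF region there (10.9). The highest of all HFFc6 regions in the window was shared: chr5:1344994-1345796 (13.5, percentile 86.6), also in CLPTM1L, with the H1 region at 10.1. In all, the TERT window held 10 HFFc6 ATAC regions, 7 of them HFFc6-only, and 7 H1 ATAC regions, 4 of them H1-only.

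**Figure D1:**
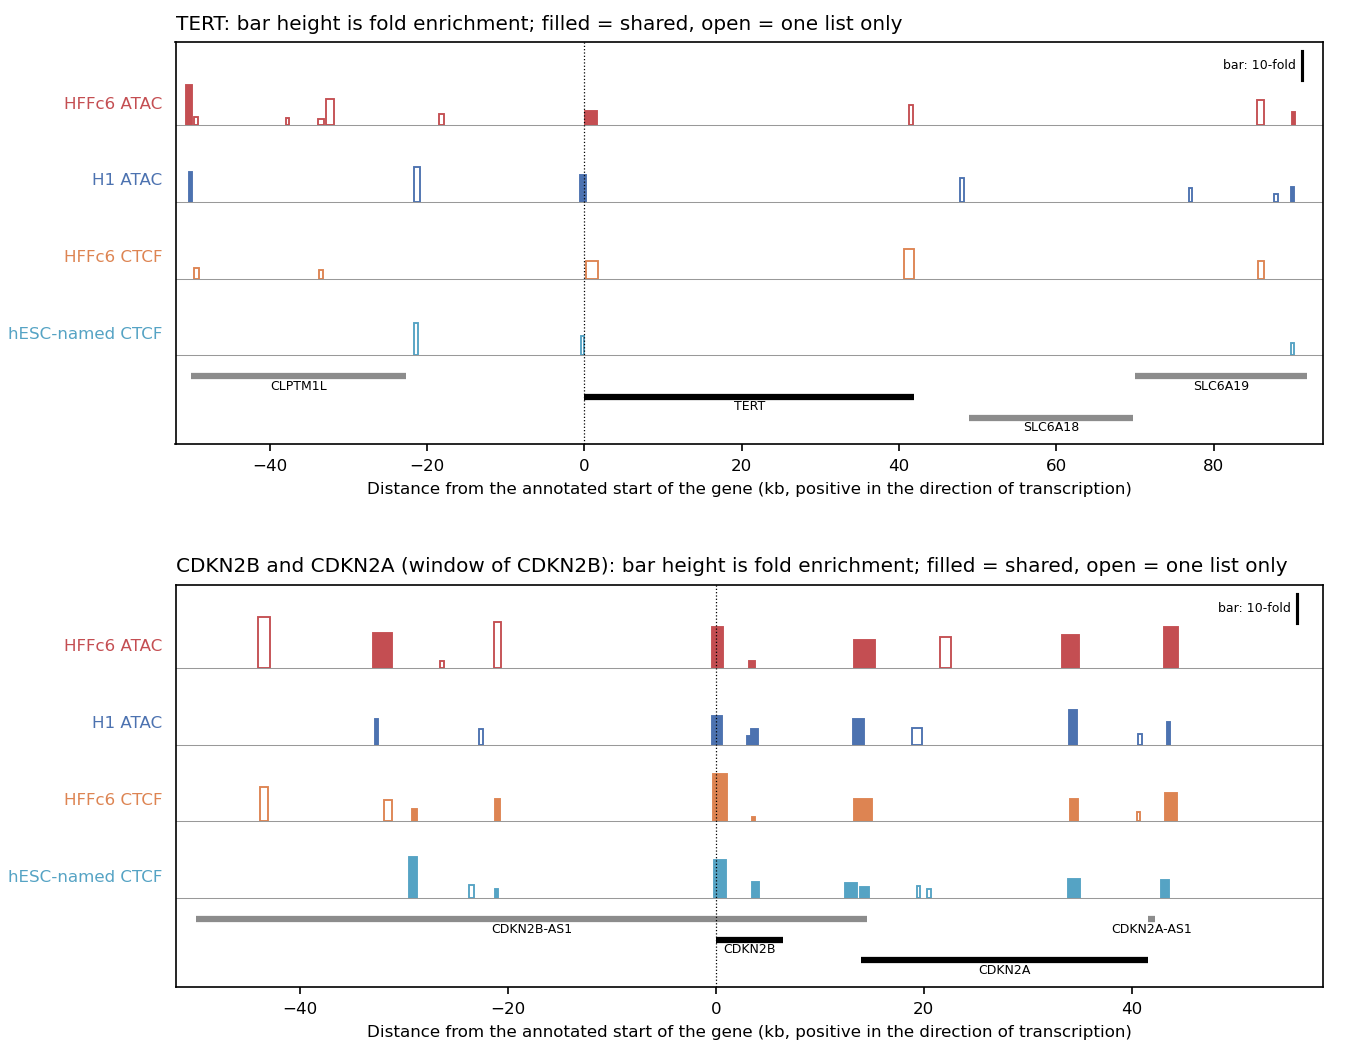
Regions of the 4 lists in the windows of TERT (top) and CDKN2B, which also holds CDKN2A (bottom), by distance in kb from the annotated start. Bar height is fold enrichment, with a 10-fold scale bar; filled bars were shared between the lists of one kind and open bars found in one list only. At TERT the HFFc6 bar begins inside the gene, 96 bp from the start, and the H1 bar spans the start, while the INK4 starts have filled bars in all 4 lists.

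The INK4 locus on chromosome 9 holds CDKN2A and CDKN2B in a row, with the long noncoding RNA CDKN2B-AS1 (ANRIL) running across CDKN2B, and the 50 kb windows of the 2 genes overlap. All 3 starts (ARF, p16INK4a and CDKN2B) were covered in all 4 lists. At the p16INK4a start the HFFc6 ATAC region chr9:21974363-21976029 had a fold enrichment of 10.9 (percentile 76.7) and the H1 region chr9:21974597-21975316 one of 11.7 (percentile 83.8). At the ARF start the HFFc6 region chr9:21994042-21996039 had 9.51 (percentile 70.5) and the H1 region chr9:21995111-21996158 had 8.68 (percentile 71.6). Both starts thus ranked in the upper part of each ATAC list.

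CTCF was called at each of these starts as well. The HFFc6 CTCF regions had a fold enrichment of 7.67 at p16INK4a (percentile 62.7) and 7.74 at ARF (percentile 63.2). The hESC-named list had 6.47 at p16INK4a (percentile 46.8), and at ARF a region over the start with 3.92 (percentile 21.3) and a further one just upstream with 5.12. CDKN2B had the highest CTCF fold enrichment of the 3 starts in both CTCF lists. Its HFFc6 CTCF region, chr9:22008294-22009606, had a fold enrichment of 15.9, at percentile 98.5 of that list, and its hESC-named region, chr9:22008339-22009475, had 13.1 (percentile 75.0). The ATAC region there, chr9:22008641-22009738 in HFFc6, had 13.9 (percentile 88.0), and the H1 region chr9:22008697-22009715 had 9.65 (percentile 75.9).

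Between and beyond the starts, the INK4 locus held both shared and list-specific regions. The 2 HFFc6-only ATAC regions of highest fold enrichment lay in CDKN2B-AS1 on the upstream side of CDKN2B, at chr9:22052241-22053389 (17.2, percentile 96.5) and chr9:22030020-22030673 (15.5, percentile 92.7). At the first, CTCF was called in HFFc6 only, with a fold enrichment of 11.5. At the second, CTCF was called in both CTCF lists, with 7.42 in HFFc6 (percentile 60.7) and 3.16 in the other (percentile 6.86). The HFFc6-only region chr9:21935970-21936625 (13.7) lay on the other side of the locus, in MTAP, an enzyme gene of methionine salvage, and carried no CTCF region. The H1-only region of highest fold enrichment, chr9:21989533-21990410 (5.59), lay inside CDKN2A between its 2 starts and overlapped an hESC-named CTCF region (4.11).

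One CTCF site of the INK4 locus was called in both CTCF lists and open in neither ATAC list. It was at chr9:22038044-22038519 in HFFc6 (fold enrichment 4.31, percentile 28.5) and chr9:22038051-22038889 in the hESC-named list (13.8, percentile 77.2), where it was the strongest CTCF region of the window. The window of CDKN2A held 13 HFFc6 ATAC regions, 7 of them HFFc6-only, and 10 H1 regions, 3 of them H1-only. The window of CDKN2B held 10 in each list, with 4 HFFc6-only and 3 H1-only. Both windows had the same CTCF counts, 10 in HFFc6 against 11 in the hESC-named list, with 3 in each list found only there.

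CDKN1A, the p21 gene, was open at its more downstream start in both lines. The HFFc6 region chr6:36678178-36679423 had a fold enrichment of 8.06 (percentile 63.0) and the H1 region chr6:36678373-36678826 had 9.33 (percentile 74.9). CTCF was called there in both lists, at 4.01 in HFFc6, against 4.29 in the hESC-named list. The 5′ end of the annotated gene body was covered only by a weak H1 region, chr6:36676319-36676583 (3.81, percentile 19.7). The region of highest fold enrichment in HFFc6 lay upstream of the gene, at chr6:36666691-36667831 (18.7, percentile 98.6), and was shared with H1, where it had 10.1 (percentile 78.1).

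Inside CDKN1A, a CTCF region was called in both lists while the chromatin was open in HFFc6 only. The HFFc6 CTCF region chr6:36679967-36681058 had a fold enrichment of 11.8 (percentile 88.8) and the hESC-named region chr6:36680407-36681156 had 12.5 (percentile 73.3). The HFFc6 ATAC region there, chr6:36679848-36680998, had 5.69. The strongest hESC-named CTCF region of the window, chr6:36724580-36725254 (16.5), lay in RAB44 and was open in both lines. The CDKN1A window held 10 HFFc6-only and 6 H1-only ATAC regions, and 5 HFFc6-only and 1 hESC-only CTCF regions. The strongest HFFc6-only ATAC region, chr6:36734977-36736111 (9.80), carried HFFc6 CTCF, and the strongest H1-only one, chr6:36660684-36661193 (10.1), carried none.

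CDKN1B, the p27 gene, had the one window in which HFFc6-only and H1-only ATAC regions were equal in number, 6 in each list. Its start lies close to an edge of the annotated body of the neighbour GPR19. This start was covered by chr12:12716226-12718213 in HFFc6 (13.0, percentile 85.1) and chr12:12716924-12717606 in H1 (9.62, percentile 75.8). Both regions overlapped GPR19 as well as CDKN1B. CTCF was called over the start at 6.90 in HFFc6 (percentile 56.2), against 5.34 in the hESC-named list (percentile 38.7). The strongest region of all 4 lists in this window was one shared site 12.6 kb upstream, inside GPR19. The HFFc6 ATAC region there, chr12:12704233-12705143, had 16.0 (percentile 93.9), and the H1 region chr12:12704692-12704936 had 18.0 (percentile 96.3). CTCF at this site had 13.7 in HFFc6 (percentile 94.9), against 15.4 in the hESC-named list (percentile 81.5).

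On either side of that site the lists parted. The strongest HFFc6-only region, chr12:12671518-12672708 (11.0), overlapped an HFFc6 CTCF region (8.26). The strongest H1-only region, chr12:12684340-12685036 (13.7), overlapped an hESC-named CTCF region (12.1). In the neighbour APOLD1, chr12:12736690-12737520 carried CTCF in both lists and was open in HFFc6 only. CTCF there had 9.60 in HFFc6 (percentile 76.5), against 15.3 in the hESC-named list (percentile 81.4). CDKN1B was also the only one of the 6 with fewer HFFc6-only than hESC-only CTCF regions, 5 against 7. This difference turned to 1 with only peaks of −log10 q 10 or more, and to 0 with lists of equal length or with a 10 kb window.

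RB1 has the longest body of the 6, and 9 of its 13 HFFc6 ATAC regions lay in it. The start was open in both lists, at chr13:48303086-48304797 in HFFc6 (14.5, percentile 89.9) and chr13:48303191-48304227 in H1 (11.4, percentile 82.9). HFFc6 CTCF covered it with a fold enrichment of 10.1 (percentile 79.4), while the hESC-named region chr13:48303202-48303702 (5.89, percentile 43.0) stopped short of the start base on the upstream side. The sequence table used here has for RB1 only a start deep inside the gene, which no region of the 4 lists covered, so its main promoter is not printed.

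The strongest CTCF site at RB1 was common to both CTCF lists and lay inside the gene. It was at chr13:48333827-48334950 in HFFc6 (13.5, percentile 94.5) and chr13:48334287-48334967 in the hESC-named list (22.9, percentile 96.5), and it was open in HFFc6 (7.86) and not in H1. A weaker site further in, chr13:48358062-48358436, was open in neither line. It had 4.17 in HFFc6 (percentile 26.8) and 4.12 in the hESC-named list (percentile 23.9). The HFFc6-only regions of highest fold enrichment were chr13:48500474-48501411 in RCBTB2 (15.4) and chr13:48400059-48401591 in the part of RB1 that also holds LPAR6 (12.8), and both carried HFFc6 CTCF. The H1-only region chr13:48465997-48466184 had the highest fold enrichment of any H1 region in the 6 windows, 20.5 (percentile 98.2), and carried no CTCF in either list. The window held 11 HFFc6-only ATAC regions and 8 H1-only ones.

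**Figure D2:**
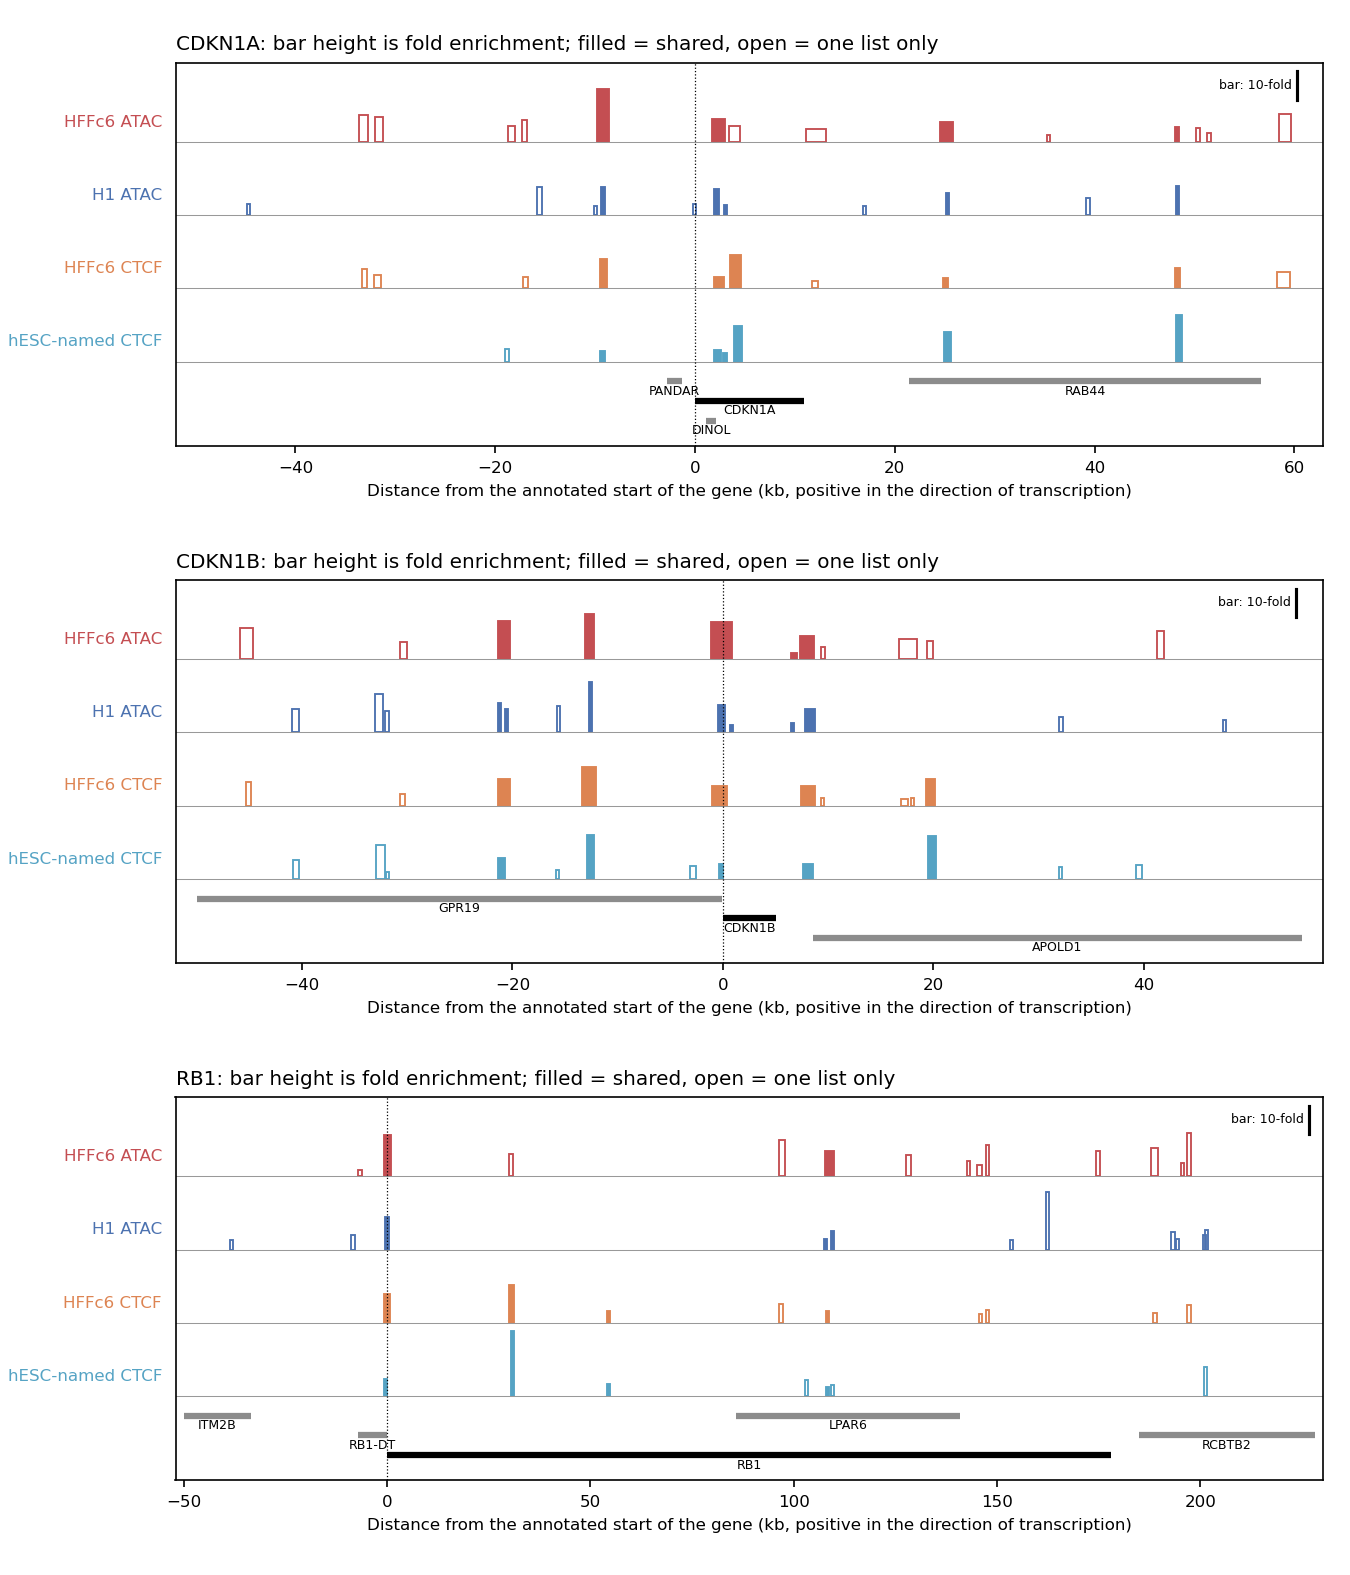
Regions of the 4 lists in the windows of CDKN1A, CDKN1B and RB1, by distance in kb from the 5′ end of each annotated gene body, drawn as in the map of TERT and the INK4 locus. The shared site 12.6 kb upstream of CDKN1B is filled in all 4 lists, and the CTCF site inside RB1 (13.5 in HFFc6, 22.9 hESC-named) has an open ATAC bar in HFFc6 only.

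Over the 6 windows together, with regions in the overlapping INK4 windows counted once, 20 of 62 HFFc6 ATAC regions (32.3%, exact 95% interval 20.9 to 45.3%) were found in the H1 list, against 34.7% of all HFFc6 ATAC regions. Of the H1 ATAC regions, 25 of 52 (48.1%, 34.0 to 62.4%) were found in the HFFc6 list, against 31.8% of all. These intervals cover counting error only, and neighbouring regions are not independent. The share of H1 regions found in HFFc6 was above its background, and no test of that difference was made. With regions within 1 kb of any annotated gene start left out, a choice made after seeing the data, 9 of 49 HFFc6 regions (18.4%, 8.76 to 32.0%) were found in H1, against 29.3% of all such regions. Of the H1 regions so chosen, 13 of 39 (33.3%, 19.1 to 50.2%) were found in HFFc6, against 26.3%.

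**Figure D3:**
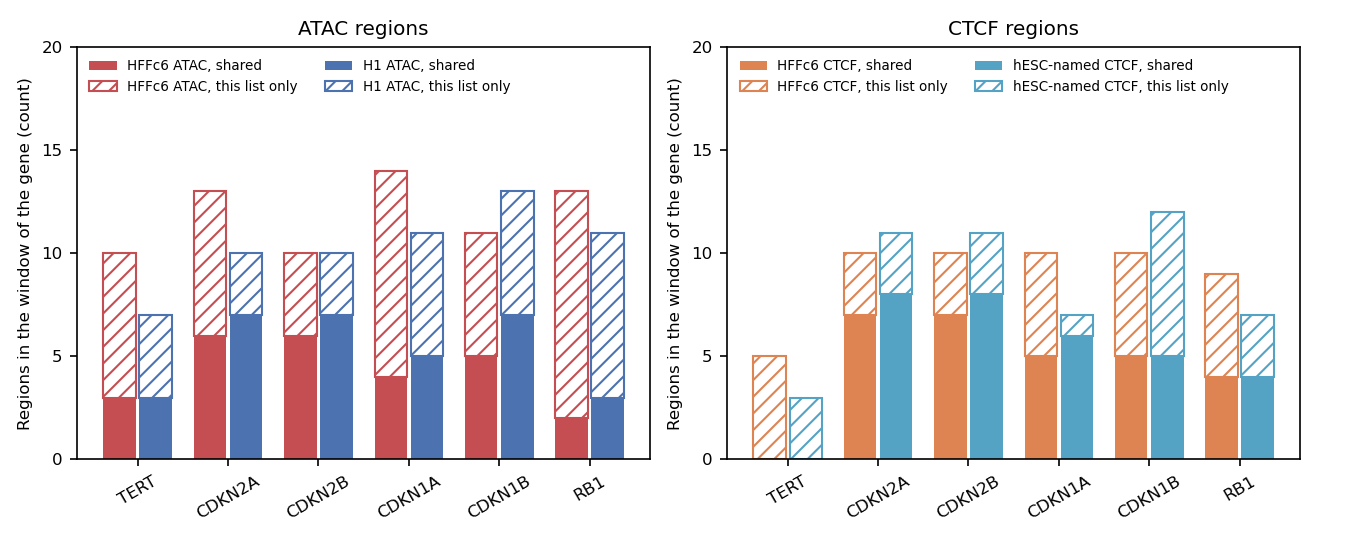
Number of ATAC regions (left) and CTCF regions (right) in the window of each gene, HFFc6 bars left of H1 or hESC-named bars; solid parts were shared between the 2 lists and hatched parts found in one list only. The TERT window has no solid part in either CTCF bar, and CDKN1B has 6 hatched ATAC regions in each list.

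Per gene, HFFc6-only ATAC regions outnumbered H1-only ones in 5 of 6 windows, by 3 at TERT, 4 at CDKN2A, 1 at CDKN2B, 4 at CDKN1A and 3 at RB1, while CDKN1B had a difference of 0. This count depended on the window: with only 10 kb on either side of the gene, 2 of 6 had more HFFc6-only regions (1 at CDKN1B and 6 at RB1), TERT and CDKN2B had a difference of 0, and CDKN2A and CDKN1A had -1. Over all 19974 protein-coding genes, 48.4% had more HFFc6-only regions and 41.1% more H1-only ones. The median difference was 3 over the 6 genes and 0 over all genes, and with the 10 kb window it was 0 over the 6. Regions in the overlap of the CDKN2A and CDKN2B windows entered the counts of both genes, so these 2 are not separate observations. For CTCF, 3 of 6 windows had more HFFc6-only than hESC-only regions (2 at TERT, 4 at CDKN1A and 2 at RB1), against 36.8% of all genes. With only peaks of −log10 q 10 or more the count was 6 of 6, and with CTCF lists of equal length it was 5 of 6. With an overlap of 50% of the shorter region, or with 500 bp around the summit, 3 had more HFFc6-only regions and 3 had fewer. The shares over all genes were not recomputed under these alternatives. In the TERT window, 2 of the 5 HFFc6-only CTCF regions lay in the TERT body, as did the HFFc6-only ATAC region at its 3′ end. These calls enter the TERT differences, although they cannot be assigned to the endogenous gene or the introduced copy.

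The density of regions differed among the genes. CDKN1A, with 12.6 HFFc6 ATAC regions per 100 kb, stood at percentile 91.3 of protein-coding genes, and CDKN2A, CDKN2B and CDKN1B lay between percentiles 68.7 and 78.5. TERT had 7.05 per 100 kb (percentile 44.4) and RB1 had 4.67 (percentile 21.7), both under the median of all genes, 7.61. In H1 ATAC, CDKN1B was the densest, with 12.4 per 100 kb (percentile 87.5), and TERT (4.93) and RB1 (3.95) were again under the median of 7.64. In the hESC-named CTCF list TERT stood at percentile 10.9, with 2.11 regions per 100 kb, against 3.52 (percentile 33.7) in HFFc6 CTCF. Each density rests on one list, and no spread between libraries is known.

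**Figure D4:**
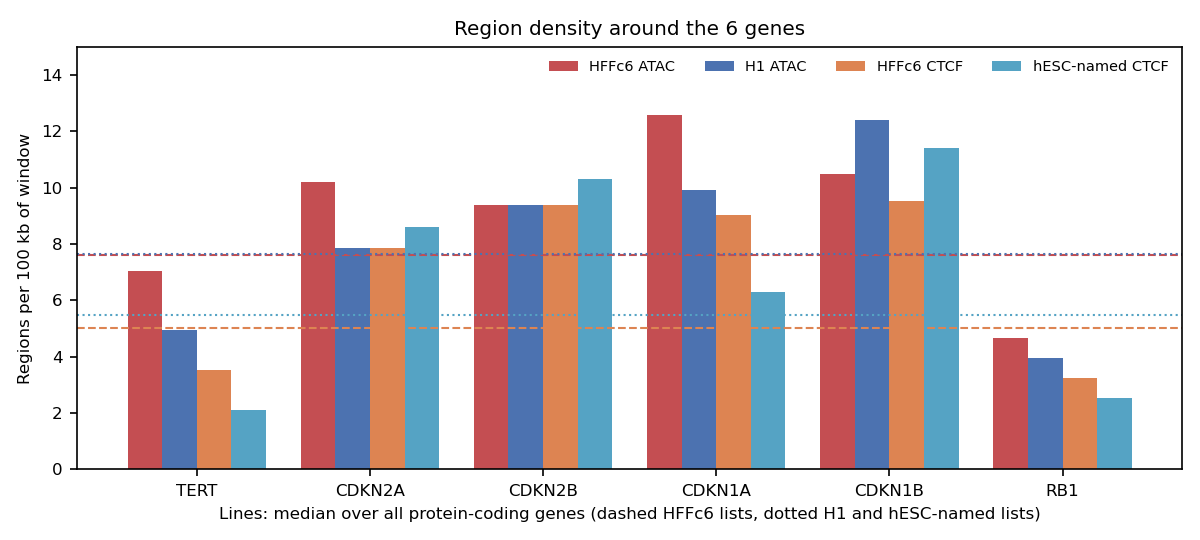
Regions per 100 kb of window for each gene and list, with lines at the median over all protein-coding genes. TERT and RB1 lie under the line of the matching list in all 4 lists, and CDKN1A has the tallest HFFc6 ATAC bar, 12.6.

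CTCF regions in the windows mostly lay in open chromatin. Of the HFFc6 CTCF regions, 42 of 45 (93.3%, 81.7 to 98.6%) overlapped an HFFc6 ATAC region, against 85.0% of all HFFc6 CTCF regions. Of the hESC-named CTCF regions, 27 of 40 (67.5%, 50.9 to 81.4%) overlapped an H1 ATAC region, against 72.6%. Read the other way, 42 of 62 HFFc6 ATAC regions (67.7%, 54.7 to 79.1%) carried HFFc6 CTCF, against 43.9% of all, and 29 of 52 H1 ATAC regions (55.8%, 41.3 to 69.5%) carried a region of the hESC-named list, against 41.3%. Cut&Tag and ATAC-seq both use Tn5, and the part of Tn5 cutting open DNA without the antibody in the HFFc6 overlap was not tested.

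Between the CTCF lists, 21 of 45 HFFc6 regions (46.7%, 31.7 to 62.1%) were found in the hESC-named list, against 50.9% of all, and 23 of 40 hESC-named regions (57.5%, 40.9 to 73.0%) were found in HFFc6, against 41.3% of all. Of the 21 HFFc6 CTCF regions found in both lists, 15 were open in both lines (71.4%, against 73.4% of all such regions), 4 in HFFc6 only (19.0%, against 9.58%), 2 in neither (9.52%, against 6.0%) and 0 in H1 only (11.0% of all). Of the 24 found in HFFc6 only, 22 were open in HFFc6 only (91.7%, against 70.2% of all such regions). A further 1 was open in both lines (4.17%, against 16.9%), 1 in H1 only (4.17%, against 1.28%) and 0 in neither (11.6% of all). Of the 17 hESC-only CTCF regions, 9 were open in H1 only (52.9%, against 53.5% of all such regions) and 5 in neither line (29.4%, against 32.1%). The others were 2 open in both (11.8%, against 11.1%) and 1 in HFFc6 only (5.88%, against 3.24%). The hESC-only shares around these genes were thus close to those over all regions.

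**Figure D5:**
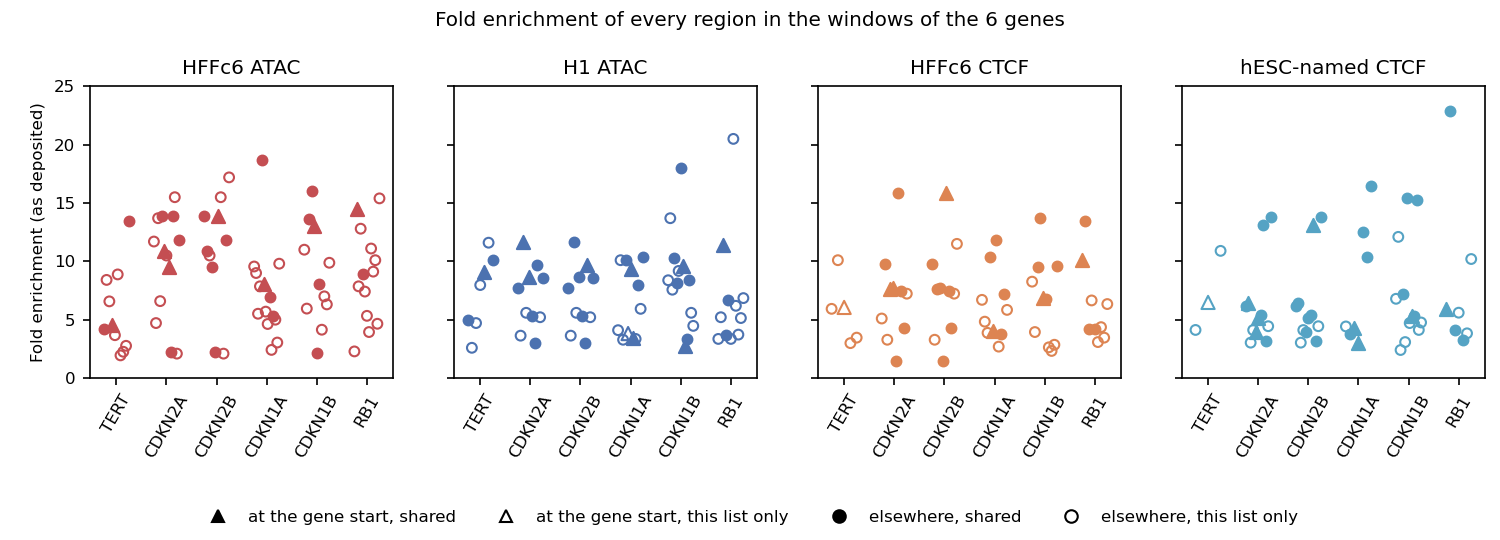
Fold enrichment, as deposited, of every region in the 6 windows, one panel per list; triangles lie within 1 kb of an annotated start of the gene, filled symbols are shared and open symbols found in one list only. Levels may be read within a panel only. The H1-only region in RB1 at 20.5 and the hESC-named CTCF region in RB1 at 22.9 stand highest in their panels.

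Shared regions had a higher median fold enrichment than list-specific ones within each list. In HFFc6 ATAC the medians were 10.2 for the 20 shared regions and 6.79 for the 42 found there only, against 7.88 and 5.26 over all regions of the list. In H1 ATAC they were 8.56 for the 25 shared and 5.21 for the 27 H1-only regions, against 7.82 and 5.21 over all. In HFFc6 CTCF they were 7.67 and 4.60, against 8.19 and 4.69 over all. In the hESC-named list they were 5.89 and 4.44, and there the shared regions of these windows lay under the median of all shared regions, 12.3.

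Genes that act with these 6 were counted by the same start rule. Of the other CDK inhibitors and pocket proteins, 5 of 5 with a start used here had an ATAC region at the start in both lists, as did 13 of 13 cyclins, kinases and E2F factors. The genes of the telomerase holoenzyme and of shelterin, which caps telomeres, gave 9 of 9, and the Polycomb regulators, known to repress the INK4 locus, gave 6 of 6. Of 5 genes of the DNA damage response, ATM, CHEK2, MDM2 and MDM4 were open at the start in both lists, and BBC3, which encodes the pro-apoptotic protein PUMA, was open there in HFFc6 only. The background for this state is the 73.2% given above.

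In the same windows, the difference between HFFc6-only and H1-only ATAC regions (HFFc6 minus H1) had a median of 0 for the other inhibitors, 1.5 for cyclins, kinases and E2F, -0.5 for telomerase and shelterin and -5 for the Polycomb regulators. Of the 7 Polycomb regulators, 4 had more H1-only regions and 2 more HFFc6-only ones. The lists are short, and nothing particular to them follows from these medians.

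By the 6 counts of ATAC and CTCF regions (shared, HFFc6-only and stem-cell-only), the genes outside its own window closest to TERT were AQP12A and KRT3, each at a summed difference of 3 regions. RB1 was closest to EPYC (2 regions), CDKN1B to LRCH3 (1 region), CDKN1A to SMIM36 and STYXL1 (2 regions each), CDKN2A to ALG2 and EPCAM (1 region each) and CDKN2B to ACSF2, FLOT2 and MPG, the first 3 by name of 4 genes at 1 region. The likeness was measured over 4 lists and says nothing of function.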

How the data were processed

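Values came from 4 peak lists on hg38. Of 22 libraries in 6 groups, 10 (for SMC1, H3K4me3 or H3K27ac) were not used. BWA, MACS2 and bedtools were used, per the submitters' processing notes; versions, filters, replicate handling and any Tn5 offset are not stated there. The deposited lists hold, per peak, a score (left unused), a fold enrichment (the peak caller's ratio over background), the −log10 of a q-value, and a summit offset, all from the authors; the p column was left unused; the lists stop at a q of 0.05. Read depth is unknown from peak lists. The labels do not say whether libraries of one group are separate cultures.

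Peaks on chromosomes 1 to 22 and X were used, and regions overlapping by at least 1 bp counted as shared. Gene bodies came from a RefSeq table (GRCh38 patch 14), with 19974 protein-coding genes; the RefSeq promoter table gave strand and starts for 15812 of them, and other genes' starts were not used. Exons were not told apart from introns. The text names the 6 genes, the regions at their starts, and the strongest regions of each list and class in each window; a few further CTCF sites open in one line or neither were chosen after their values were seen. Intervals are exact (Clopper-Pearson). The genes, lists and descriptions were chosen with earlier results of these data known. No test was possible, since each list is a single call. Overlap counting was tested on simulated data. The marker TDGF1 was matched as CRIPTO. Of a further list, 1 gene and the list median are not reported here. Alternatives covered the q threshold, overlap, list length, window and region width. Python 3.11.15, pandas 2.3.3, numpy 2.4.6 and scipy 1.17.1 were used.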

Additional observations from a re-analysis of the deposited data

How the results depend on the processing

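Shares and start counts moved by less than their intervals, or by less than 1.5 times, in 44 recomputed values and by more in 6. With 10 kb windows, the share of HFFc6 ATAC regions found in H1 was 48.1%, that of H1 ATAC regions found in HFFc6 65.4%, and for HFFc6 CTCF in the hESC-named list it was 63.6%. With a −log10 q of at least 10, the share of H1 ATAC regions found in HFFc6 was 65.5%. The share over all H1 regions was not recomputed at that threshold. Over the whole H1 list, 68.9% of shared and 38.9% of H1-only regions reached it, so the rise is not particular to these genes. With regions near gene starts left out, the first 2 shares were 18.4% and 33.3%. Narrow windows hold proportionally more gene starts by construction; otherwise the cause was not tested. The difference of list-only ATAC regions reversed to -1 at CDKN2A and at CDKN1A with 10 kb windows, and the CTCF difference at CDKN1B reversed to 1 at a −log10 q of at least 10; of the other differences per gene, 44 stayed within the limit and 37 moved. At that q, genes with CTCF at the start in both lists numbered 5, without RB1. Because depth is unknown, a region missing from a list may have been under its threshold. No paired analysis was possible because the lists hold no values per library and no result comes from a test.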
